A study of Mus musculus with 5 samples.

Results

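The 9 genes described are ligands and receptors of the epidermal growth factor (EGF) family, chosen by symbol from the 31053 genes counted. The ligands are *Areg* (amphiregulin), *Hbegf* (heparin-binding EGF-like growth factor), *Ereg* (epiregulin), *Tgfa* (transforming growth factor alpha), *Btc* (betacellulin) and *Nrg1* (neuregulin). The receptors are *Egfr*, *Erbb2* and *Erbb3*. EGF family ligands are made as membrane-bound precursors and are released by metalloproteases such as Adam17 and Adam10. They bind Egfr or Erbb3, which pair with each other or with Erbb2, a partner that has no ligand of its own, while Erbb3 has little kinase activity and signals through its partner. In the injured lung this family is known for epithelial repair, and amphiregulin is also made by immune cells.

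Single-cell RNA was counted in 5 libraries of mouse lung, each pooling 3 mice whose cells carried distinct hashtag antibodies. All mice carried floxed *Itgb1*, which encodes the β1 integrin subunit. In β1AT2-KO mice a surfactant protein C (SP-C) promoter drove rtTA, which turned on TetO-Cre under doxycycline from P28, so that deletion was aimed at alveolar type 2 (AT2) cells, the surfactant-producing progenitors of the alveolus. β1fl/fl littermates lacked the transgenes. Adult mice received intratracheal LPS or PBS, and lungs were taken on day 7 (LPS-treated β1fl/fl, LPS-treated β1AT2-KO and PBS-treated β1AT2-KO) or on day 21 (LPS-treated β1fl/fl and LPS-treated β1AT2-KO). Live cells without CD45 or Ter119 were sorted, which removes most immune cells and red cells, and the day 21 samples were enriched for EPCAM+ epithelial cells. PBS-treated β1fl/fl lungs were not analysed here.

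Between 2224 and 8671 cells per library passed a filter of 700 genes or more and a mitochondrial share of 0.1 to 15%. A UMI (unique molecular identifier) stands for 1 captured RNA molecule, and the kept cells of a library held 8360954 to 29128331. An AT2 cell had at least 5% of its UMIs from *Sftpc*, at least 1 *Epcam* UMI and none of *Cdh5*, *Pecam1* or *Col1a2*. This gate held 119, 355, 26, 176 and 1240 cells in LPS-treated β1fl/fl, LPS-treated β1AT2-KO and PBS-treated β1AT2-KO lungs on day 7 and in LPS-treated β1fl/fl and LPS-treated β1AT2-KO lungs on day 21, the order kept below. Of the 12 AT2 markers, *Sftpc* was fixed by the gate. The others, including *Sftpb*, *Lamp3* and *Abca3*, each had at least 1 UMI over the AT2 cells of each library, which is a low bar. Endothelial cells (879 to 7976 per library) had at least 2 UMIs of *Cdh5* and *Pecam1*, mesenchymal cells (103 to 553) at least 2 of *Col1a2*, and neither had markers of the other compartments. Barcodes found in another library numbered 94 to 235 per library. A level is given in CPM, UMIs of the gene over all UMIs of the class and scaled to 1000000, with an exact Poisson 95% interval that covers counting error only. Libraries read the 5′ end of transcripts, so levels are compared between cells for the same gene and not between genes.

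The targeted gene, *Itgb1*, checks the genotype labels. On day 21 it stood at 347, 315 and 365 CPM in AT2 cells of the 3 β1fl/fl mice and at 143, 180 and 144 CPM in the 3 β1AT2-KO mice, a log2 fold change of -1.26 (SE 0.12, adjusted p = 3.37e-07, edgeR quasi-likelihood test over mice). On day 7 the LPS-treated values were 258, 235 and 305 CPM in β1fl/fl and 213, 150 and 192 CPM in β1AT2-KO mice, without overlap, and the test over all genes was not passed (log2 fold change -0.64, SE 0.18, adjusted p = 0.0778). These 5′ reads do not show which exons a transcript kept.

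*Areg* lies on mouse chromosome 5 (91139599 to 91148432, plus strand, GRCm38) in a row of 4 EGF family genes, in the order *Epgn*, *Ereg*, *Areg* and *Btc*. The gaps between them are 39.4, 46.0 and 209 kb, and *Btc* (91357261 to 91402994) lies on the minus strand. Promoters of *Areg* and of its neighbour *Btc*, 250 bases before to 50 after the RefSeq start, are shown because *Areg* rose in β1AT2-KO AT2 cells while *Btc* did not pass the test on day 21. On day 7 *Btc* had too few UMIs to be tested, so it is not known to be unchanged. Whether the promoters relate to these levels was not tested. Capitals mark matches, on either strand, to the full cyclic AMP response element (TGACGTCA), its half-site (TGACG) and the TATA box (TATAAA).
Areg, chr5:91139349-91139648, plus strand: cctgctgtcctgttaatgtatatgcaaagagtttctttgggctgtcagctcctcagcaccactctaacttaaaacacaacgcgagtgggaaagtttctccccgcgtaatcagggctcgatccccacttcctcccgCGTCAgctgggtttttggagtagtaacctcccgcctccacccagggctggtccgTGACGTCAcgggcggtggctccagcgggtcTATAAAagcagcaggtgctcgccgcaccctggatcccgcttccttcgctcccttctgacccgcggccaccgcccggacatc
Btc, chr5:91402945-91403244, minus strand: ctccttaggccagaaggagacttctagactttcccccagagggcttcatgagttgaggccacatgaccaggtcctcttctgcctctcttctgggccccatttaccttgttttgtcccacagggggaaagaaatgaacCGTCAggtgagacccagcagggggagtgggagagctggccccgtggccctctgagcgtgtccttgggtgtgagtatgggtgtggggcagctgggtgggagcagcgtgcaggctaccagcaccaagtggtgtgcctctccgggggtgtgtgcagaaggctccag

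The *Areg* promoter held the full cyclic AMP response element at -61 to -54, which 1.79% of 32851 promoters of this length hold, and a TATA box at -31 to -26, which 13.6% hold. It also had a separate half-site at -115 to -111. The *Btc* promoter held the half-site alone, at -113 to -109, as do 20.8% of promoters. The motif of AP-1, the Fos and Jun dimer (TGANTCA, in 7.81% of promoters), was not found in either window. Of the 9 genes, 5 had a promoter entry (*Areg*, *Tgfa*, *Btc*, *Egfr* and *Erbb2*). No *Tgfa* or *Egfr* promoter match was found to these motifs, and *Erbb2* had a half-site at -171 to -167. These are letter matches and not measured binding sites.

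The family was divided between compartments. *Areg* was an epithelial transcript. In AT2 cells it stood at 338 CPM (305 to 373) in LPS-treated β1fl/fl, 916 CPM (881 to 952) in LPS-treated β1AT2-KO and 787 CPM (682 to 903) in PBS-treated β1AT2-KO lungs on day 7, and at 345 CPM (319 to 372) and 662 CPM (647 to 678) on day 21. The PBS-treated value came mostly from cells given to no mouse, as described below. In endothelial cells of the same libraries *Areg* ranged from 0.917 to 19.2 CPM and in mesenchymal cells from 0 to 8.26 CPM. Free RNA, which enters every droplet, keeps the genes of AT2 cells in 1 ratio, and from the *Sftpc* found in endothelial cells 2.34 to 49.4 CPM of *Areg* would come with it. The measured endothelial level was below that value in 4 libraries and near it in the fifth, LPS-treated β1AT2-KO on day 7 (19.2 against 18.2 CPM). The mean endothelial level was thus not clearly above that of free RNA. In the fifth library its 272 UMIs lay in 109 of 4777 endothelial cells, so some cells held more than 1, and their source was not tested. In other epithelial cells, which had *Epcam* but little *Sftpc*, *Areg* reached 656 CPM in 91 LPS-treated β1fl/fl cells on day 7 and 959 CPM in 40 LPS-treated β1AT2-KO cells. Within them, 55 β1fl/fl cells had more markers of the Krt8+ alveolar transitional state than of any other epithelial list. They held 819 CPM of *Areg* and 85.8 CPM of *Hbegf*. The β1fl/fl other epithelial cells also carried airway markers, summed per mouse to 6649 to 9575 CPM (ciliated) and 6438 to 233836 CPM (club). The 55 cells may thus include airway cells.

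*Hbegf* was found in every compartment. Its AT2 levels were 265, 252 and 238 CPM on day 7 and 122 (107 to 138) and 266 CPM on day 21. Endothelial levels were 20.5, 31.3, 15.5, 41.5 and 37.0 CPM, above the 0.708 to 19.8 CPM that free AT2 RNA would bring. Within the endothelium *Hbegf* was higher in general capillary cells, the gCap cells that renew the capillary bed, with 19.5 to 73.5 CPM, than in aerocytes, the gas-exchange capillary cells, with 2.98 to 13.1 CPM, and the intervals did not overlap in any library. Within the mesenchyme it was highest in pericytes, at 140, 244 and 366 CPM in LPS-treated β1fl/fl day 7, LPS-treated β1AT2-KO day 7 and LPS-treated β1fl/fl day 21 lungs, on 40 to 57 cells each. Alveolar fibroblasts, the lipid-handling fibroblasts beside AT2 cells, held 0 to 5.54 CPM.

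Among the AT2, endothelial and mesenchymal cells, *Egfr* and *Ereg* were highest in the mesenchyme with LPS. *Egfr*, the receptor of both ligands above, stood at 157, 157, 98.3, 163 and 208 CPM in mesenchymal cells, at 6.70 to 14.99 CPM in AT2 cells and at 0.724 to 2.64 CPM in endothelial cells. Adventitial fibroblasts of the vessel cuffs held 160 to 277 CPM of *Egfr* and alveolar fibroblasts 106 to 230 CPM, while pericytes held 36.4 to 95.3 CPM. *Ereg* stood at 33.9 and 37.1 CPM in mesenchymal cells of LPS-treated β1fl/fl and β1AT2-KO lungs on day 7 and at 12.5 and 9.92 CPM on day 21. With PBS, 0 UMIs of *Ereg* were found in 103 mesenchymal cells, where the interval reached 10.7 CPM. In other epithelial cells *Ereg* had 0 to 3 UMIs, except in 11 cells of LPS-treated β1AT2-KO lungs on day 21, with 9 UMIs (116 CPM, 52.8 to 219). *Nrg1*, the ligand of Erbb3, stood in mesenchymal cells at 23.1 and 12.6 CPM on day 7 and at 3.68 and 3.31 CPM on day 21 with LPS, and other epithelial cells held 20.8 CPM (12.7 to 32.1) and 13.2 CPM (3.59 to 33.8) on day 7 with LPS, with intervals that overlapped the mesenchymal ones.

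On day 7 *Ereg* UMIs lay in 21 of 395 mesenchymal cells of LPS-treated β1fl/fl and 24 of 553 of LPS-treated β1AT2-KO lungs. Among the subsets given here, the one with the highest *Ereg* level differed between these libraries. Among β1fl/fl cells on day 7 it stood at 50.4 CPM in 40 pericytes (9 UMIs), at 11.9 CPM in 165 adventitial fibroblasts (12 UMIs) and at 9.04 CPM in 55 smooth muscle and myofibroblast cells (3 UMIs), and most of its 75 mesenchymal UMIs lay in cells outside these subsets. In LPS-treated β1AT2-KO lungs on day 7, 57 pericytes had 0 UMIs, 230 adventitial fibroblasts had 7.11 CPM (11 UMIs) and 80 smooth muscle and myofibroblast cells had 149 CPM (118 to 186). In the endothelium 31 of its 38 UMIs came from aerocytes of LPS-treated β1fl/fl lungs on day 7 (7.33 CPM, 4.98 to 10.4), against 1 UMI in aerocytes of LPS-treated β1AT2-KO lungs. The 34 endothelial UMIs of that β1fl/fl library lay in 6 of 6508 cells, and its mice ranged from 0 to 6.25 CPM. The differences between genotypes given here were between single libraries and were not tested.

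*Erbb3* was epithelial, at 29.1, 57.8, 35.0, 42.0 and 47.0 CPM in AT2 cells and at no more than 1.66 CPM in endothelial or mesenchymal cells. Other epithelial cells held 55.1 CPM (41.3 to 72.1) in β1fl/fl and 112 CPM (77.6 to 157) in β1AT2-KO lungs on day 7 with LPS. *Erbb2* was the evenly spread receptor, at 14.99 to 25.2 CPM in AT2, 6.81 to 15.6 CPM in endothelial and 11.6 to 14.7 CPM in mesenchymal cells. Endothelial *Erbb2* sat in general capillary cells (8.86 to 19.4 CPM) more than in aerocytes (0.913 to 5.64 CPM). *Tgfa* and *Btc* were low in AT2 cells, at 0 to 13.0 and 6.32 to 16.8 CPM. Other epithelial cells on day 7 with LPS held 8.32 CPM of *Tgfa* in β1fl/fl and 29.7 CPM (13.6 to 56.3) in β1AT2-KO lungs. For *Btc* these values were 13.5 and 3.30 CPM. The totals of *Tgfa* and *Btc* over all classes and libraries were 265 and 168 UMIs, against 12520 for *Areg* and 6049 for *Hbegf*. Of the other family members, *Egf*, *Epgn*, *Nrg3*, *Nrg4* and *Erbb4* had at most 27 UMIs in any class, and *Nrg2* was mesenchymal, with 142 UMIs.

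**Figure D1:**
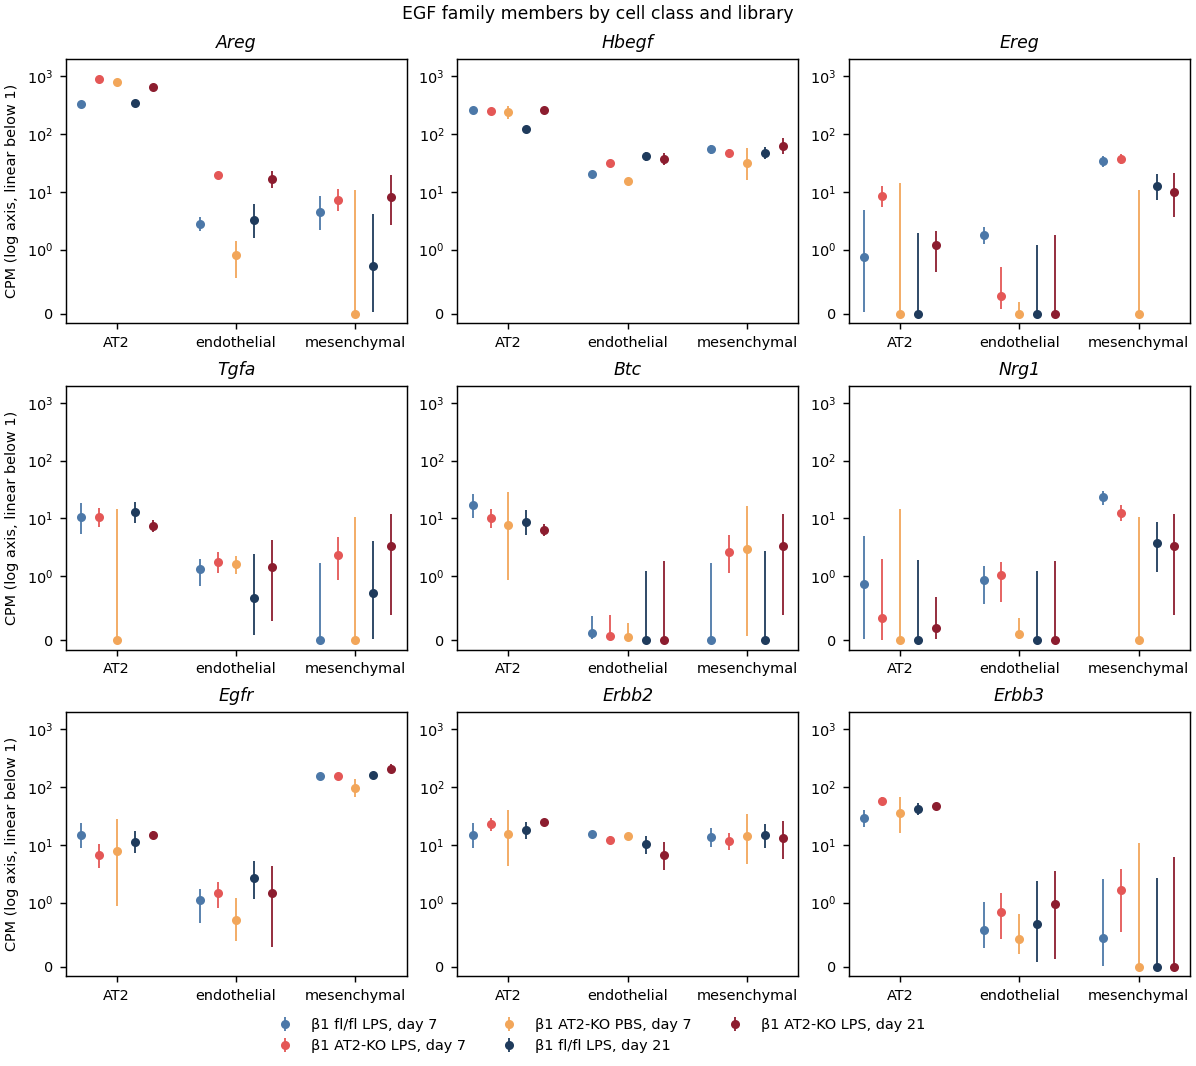
Level of each of the 9 genes in CPM (log axis, linear below 1) in AT2, endothelial and mesenchymal cells of the 5 libraries; bars are exact Poisson 95% intervals, which cover counting error only. *Areg* and *Erbb3* sat highest in AT2 cells, *Egfr*, *Ereg* and *Nrg1* in mesenchymal cells, and *Hbegf* and *Erbb2* were present in all 3 classes.

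**Figure D2:**
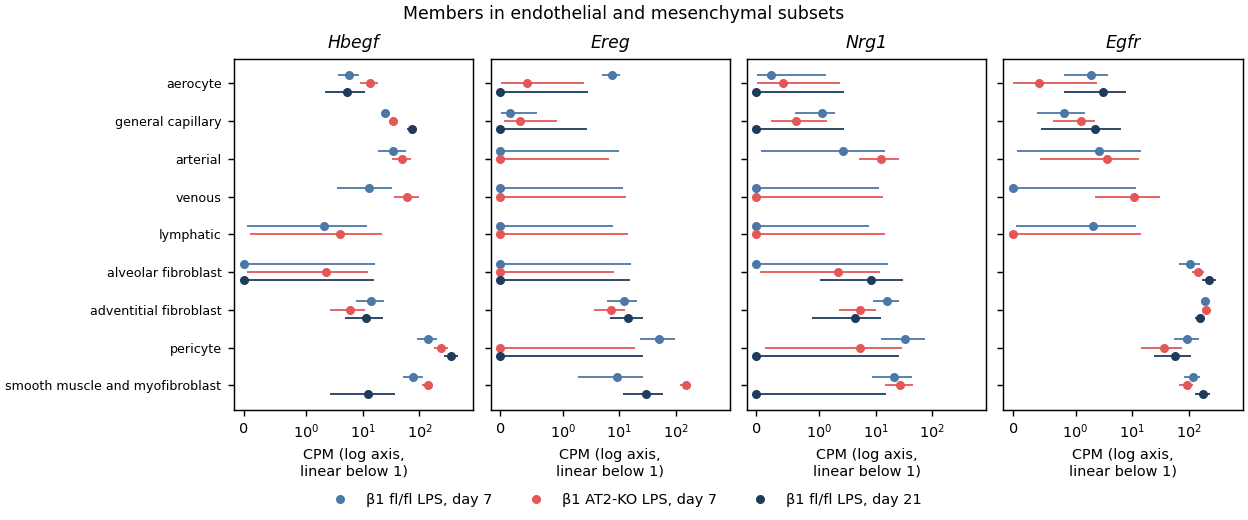
Level of *Hbegf*, *Ereg*, *Nrg1* and *Egfr* in CPM (log axis, linear below 1) in endothelial and mesenchymal subsets of at least 30 cells in 3 LPS-treated libraries (β1fl/fl and β1AT2-KO on day 7, β1fl/fl on day 21); bars are exact Poisson 95% intervals. In these libraries *Hbegf* was highest in pericytes, with 140, 244 and 366 CPM, and at 2.18 CPM or less in alveolar fibroblasts, and *Egfr* was at 36.4 CPM or more in each mesenchymal subset and at 10.8 CPM or less in the endothelial ones.

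Whether loss of β1 integrin changed the family in AT2 cells was asked within each time point, on UMIs summed over the AT2 cells of each mouse. On day 7 with LPS, *Areg* stood at 431, 321 and 257 CPM in the 3 β1fl/fl mice and at 854, 993 and 468 CPM in the 3 β1AT2-KO mice. Each β1AT2-KO mouse was above each β1fl/fl mouse, the nearest pair being 468 and 431 CPM. Means were 336 ± 88.0 and 772 ± 272 CPM (SD, n = 3 mice each), and the log2 fold change was 1.06 (SE 0.23, 95% interval 0.58 to 1.54, adjusted p = 0.0145, edgeR). Of the 4 family genes with enough UMIs to be tested, *Areg* was the 1 called, where 1.68% of 5897 genes were called. With 1 mouse left out at a time the log2 fold change ranged from 0.82 to 1.35. The call was lost without β1AT2-KO mouse 1 (adjusted p = 0.0808), β1AT2-KO mouse 2 (adjusted p = 0.121) or β1fl/fl mouse 2 (adjusted p = 0.0559), and when only mice with at least 20 AT2 cells were used (log2 fold change 0.87, adjusted p = 0.0575).

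*Hbegf* showed no such separation on day 7. It stood at 295, 117 and 309 CPM in the β1fl/fl mice and at 168, 307 and 162 CPM in the β1AT2-KO mice, with overlap and a log2 fold change of -0.30 (95% interval -0.82 to 0.23, adjusted p = 0.726, edgeR). *Erbb3* was 37.4, 24.7 and 19.0 CPM in β1fl/fl and 54.1, 53.0 and 64.7 CPM in β1AT2-KO mice. These groups did not overlap either, but the test over all genes was not passed (log2 fold change 0.82, 95% interval 0.17 to 1.46, adjusted p = 0.255). *Erbb2* had a log2 fold change of 0.37 (95% interval -0.73 to 1.47, adjusted p = 0.879). The other 5 genes had too few UMIs to be tested.

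Other features moved with genotype on day 7. By *Xist* and 4 Y-linked genes, all 3 LPS-treated β1fl/fl mice were female and all 3 LPS-treated β1AT2-KO mice were male, so genotype and sex cannot be told apart there. The summed level of 10 markers of AT1 cells, the flat gas-exchange cells that AT2 cells give rise to, was 1972 to 2352 CPM in β1fl/fl and 3111 to 4158 CPM in β1AT2-KO AT2 cells. The 12 immune markers summed to 23368, 23286 and 23136 CPM in β1fl/fl and to 15604, 15385 and 16810 CPM in β1AT2-KO mice. Nearly all of that was *Lyz2*, which AT2 cells also express and which the AT2 list shares (23131 to 23358 and 15368 to 16800 CPM), and *Ptprc*, which encodes CD45, had 0 UMIs in the AT2 cells of each mouse. The ciliated markers summed to 38.1 to 66.9 CPM and to 74.6 to 122 CPM. The part of these lists in the *Areg* difference was not tested. The markers of club cells, a secretory airway type, summed to 15160 CPM in β1fl/fl mouse 2, against 1295 and 1899 CPM in mice 1 and 3 of that group. The mice of a condition were captured in 1 library, so condition and library cannot be told apart in any comparison, and the test covers the spread between mice.

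On day 21 both main ligands rose in β1AT2-KO AT2 cells. *Hbegf* stood at 137, 106 and 101 CPM in the β1fl/fl mice and at 284, 213 and 284 CPM in the β1AT2-KO mice. The groups did not overlap and were narrow, with means of 115 ± 19.6 and 260 ± 40.6 CPM (SD, n = 3 mice each). The log2 fold change was 1.09 (SE 0.15, 95% interval 0.77 to 1.41, adjusted p = 0.000128, edgeR), and it stayed between 0.97 and 1.23 and was called in each of 13 alternatives. *Areg* stood at 307, 498 and 347 CPM in the β1fl/fl mice and at 761, 558 and 691 CPM in the β1AT2-KO mice. These groups did not overlap, the nearest values being those of mouse 2 in each group, 498 and 558 CPM. The log2 fold change of *Areg* was 0.70 (SE 0.14, 95% interval 0.40 to 1.00, adjusted p = 0.00437), and without β1fl/fl mouse 3 it was 0.61 and no longer called (adjusted p = 0.0621).

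Of 7 family genes tested on day 21, 2 were called, where 3.55% of 8728 genes were. *Tgfa* (log2 fold change -0.78, 95% interval -1.66 to 0.09, adjusted p = 0.386) and *Btc* (-0.54, -1.61 to 0.53, adjusted p = 0.674) lay on the other side of 0 and did not pass. The receptors *Egfr* (0.51, -0.47 to 1.48), *Erbb2* (0.40, -0.22 to 1.01) and *Erbb3* (-0.09, -0.56 to 0.38) did not pass, with adjusted p = 0.665, 0.571 and 0.901. By *Xist* and the Y-linked genes both sexes were present in each day 21 group, but β1fl/fl mouse 1 was the only male of its group. The cells tagged as that mouse carried both *Xist* (66.3 CPM) and Y-linked (111 CPM) UMIs in endothelial cells, so its sex is uncertain. Without that mouse the log2 fold changes were 0.59 for *Areg* (adjusted p = 0.0281) and 1.23 for *Hbegf* (adjusted p = 9.42e-05). With sex added to the model the log2 fold changes were 0.83 for *Areg* (adjusted p = 0.00026) and 1.12 for *Hbegf* (adjusted p = 6.31e-05). That model relies on the sex read for β1fl/fl mouse 1. The AT1 markers summed to 2812 to 3148 CPM in β1fl/fl and to 2947 to 3148 CPM in β1AT2-KO mice, so they did not separate the groups. The immune markers did, at 20130 to 26067 CPM in β1fl/fl and 16185 to 17089 CPM in β1AT2-KO mice, again nearly all *Lyz2* (20124 to 26053 and 16174 to 17081 CPM) with *Ptprc* at 0 UMIs. The club markers also did, at 1166 to 1268 and 1378 to 1719 CPM. Their part in the *Areg* and *Hbegf* differences was not tested.

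The genotype effect on *Hbegf* differed between the days. Its log2 fold change on day 21 exceeded that on day 7 by 1.38 (SE 0.33, 95% interval 0.71 to 2.04, adjusted p = 0.0391, edgeR interaction of genotype and day, where 0.597% of 6365 genes were called). The call was lost in 8 of 12 fits that left out 1 mouse, among them each fit without mouse 1 or mouse 3 of either day 7 group (adjusted p = 0.0889 to 0.293) and without mouse 2 or 3 of the day 21 β1fl/fl group or mouse 1 or 3 of the day 21 β1AT2-KO group (adjusted p = 0.0823 to 0.202). The difference ranged from 1.15 to 1.83 over these fits and was 1.35 with sex in the model, where it was not called (adjusted p = 0.0803). *Areg* gave a difference of -0.37 (95% interval -0.99 to 0.26, adjusted p = 0.720) and *Erbb3* one of -0.91 (-1.71 to -0.10, adjusted p = 0.382). The day 21 cells were enriched for EPCAM and the day 7 cells were not.

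**Figure D3:**
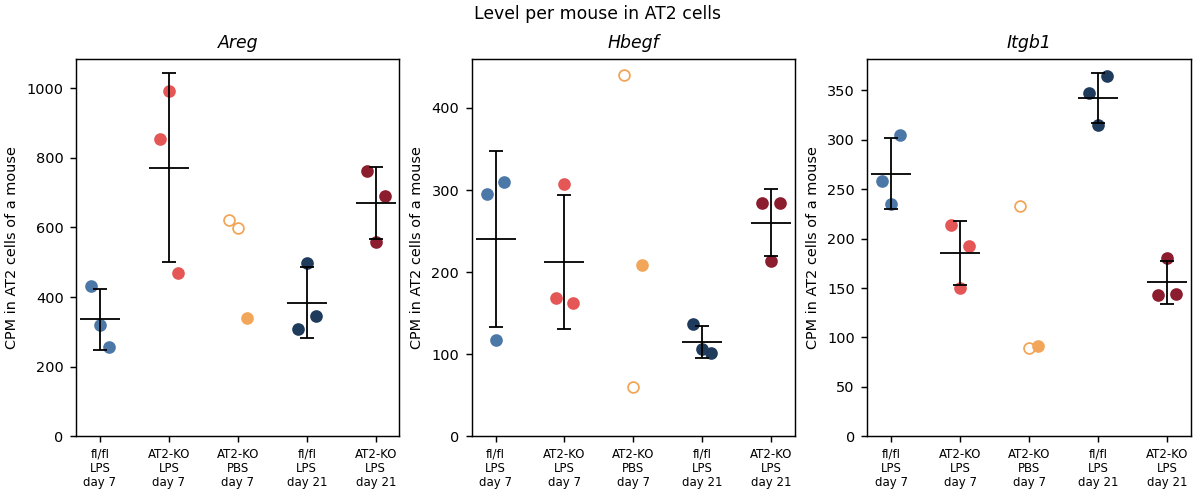
CPM of *Areg*, *Hbegf* and *Itgb1* in the AT2 cells of each mouse by group; bars are mean ± SD over mice with at least 5 AT2 cells, and open circles are mice with fewer. The LPS-treated β1AT2-KO mice lie above the β1fl/fl mice for *Areg* on both days and for *Hbegf* on day 21, and below them for *Itgb1*.

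PBS-treated β1AT2-KO lungs gave 26 AT2 cells, of which mice 1, 2 and 3 had 4, 2 and 9. *Areg* was 622, 598 and 340 CPM in them and *Hbegf* 440, 59.8 and 209 CPM. Mouse 3 alone had enough cells for the test, so LPS against PBS set 3 mice against 1, whose spread was taken from the other groups. *Areg* had a log2 fold change of 1.096 (SE 0.43, adjusted p = 0.538, edgeR) and *Hbegf* one of -0.01 (SE 0.55, adjusted p = 0.999). None of the 4 genes tested was called by edgeR, 1 of them at an unadjusted p under 0.05, and none by DESeq2, where edgeR called 0.203% of 5897 genes. Over all cells of the libraries, *Areg* in PBS-treated β1AT2-KO AT2 cells (682 to 903 CPM) had an interval above that of LPS-treated β1fl/fl cells (305 to 373 CPM), which is a comparison of 2 libraries and has no replicate check. Mice 1, 2 and 3 held 24, 20 and 26 of these 202 PBS *Areg* UMIs, so most came from cells given to no mouse. Each of the 3 mice lay below the 682 to 903 CPM interval. Mouse 3, at 340 CPM, lay within the LPS-treated β1fl/fl mice (257 to 431 CPM).

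Higher levels can come from more cells with the transcript or from more of it per cell, which these counts cannot tell apart. With few UMIs per cell, more transcript in each cell also raises the share of cells with a UMI. AT2 cells were thinned to 2000 UMIs each, which left out at most 8 cells per library, since their median depths differed from 7615 to 11251 UMIs. On day 21 the expected share of AT2 cells with an *Hbegf* UMI was 17.0, 15.8 and 15.1% in β1fl/fl mice and 32.7, 26.1 and 31.1% in β1AT2-KO mice. For *Areg* it was 26.4, 24.9 and 30.7% against 47.0, 42.4 and 46.9%. The shares of the genotypes did not overlap for either ligand. UMIs per positive cell overlapped between genotypes for *Areg*, at 2.23, 3.902 and 2.08 against 3.36, 2.62 and 3.08, and for *Hbegf*, at 1.95, 1.32 and 1.37 against 1.83, 1.80 and 1.86.

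On day 7 the expected share of AT2 cells with *Areg* was 33.7, 29.1 and 30.9% in β1fl/fl mice and 57.8, 57.8 and 33.6% in LPS-treated β1AT2-KO mice. Mouse 3 of the β1AT2-KO group fell within the β1fl/fl values. UMIs of *Areg* per positive cell did not overlap on day 7, at 2.36, 2.22 and 1.55 in β1fl/fl against 2.79, 3.68 and 2.48 in LPS-treated β1AT2-KO mice. Cells with at least 5 *Areg* UMIs after thinning made up 3.28% of β1fl/fl and 14.97% of β1AT2-KO AT2 cells on day 7, and 3.76 and 8.89% on day 21. Without thinning, 54.6, 75.8, 65.4, 49.4 and 68.7% of AT2 cells had an *Areg* UMI, against 0.584, 2.28, 0.113, 0.253 and 3.30% of endothelial cells, whose median depth was 1993 to 2490 UMIs. *Ereg* was found in 6 of 355 AT2 cells of LPS-treated β1AT2-KO lungs on day 7, which held 24 UMIs with up to 9 in 1 cell, and in 1 of 119 β1fl/fl cells.

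**Figure D4:**
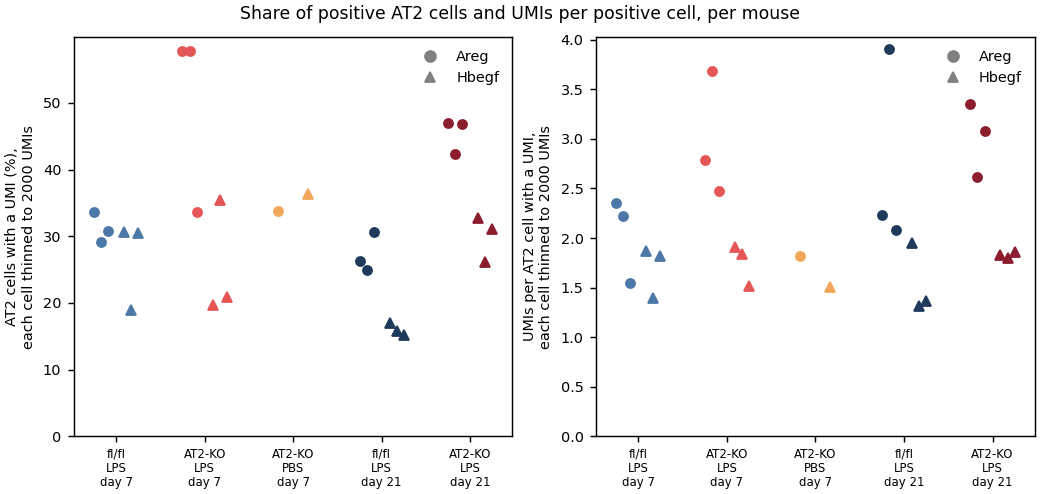
Expected share of AT2 cells with an *Areg* or *Hbegf* UMI (left, percent) and UMIs per positive cell (right) in each mouse with at least 5 AT2 cells, after thinning each cell to 2000 UMIs; circles are *Areg* and triangles *Hbegf*. On day 21 the shares of the β1AT2-KO mice (42.4 to 47.0% for *Areg*, 26.1 to 32.7% for *Hbegf*) lie above those of the β1fl/fl mice, while UMIs per positive cell overlap. With few UMIs per cell, a share also rises with the level per cell.

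Outside AT2 cells *Hbegf* rose with LPS in the endothelium. On day 7 it stood at 13.7, 21.3 and 13.3 CPM in endothelial cells of PBS-treated β1AT2-KO mice and at 32.4, 29.4 and 27.0 CPM in LPS-treated β1AT2-KO mice, without overlap. The log2 fold change was 0.79 (SE 0.18, 95% interval 0.40 to 1.18, adjusted p = 0.00720, edgeR), and it was called in each of 13 alternatives. In this comparison 26.9% of 11673 genes were called. Between genotypes with LPS on day 7, β1fl/fl endothelial *Hbegf* was 21.2, 19.5 and 18.2 CPM, each value below the LPS-treated β1AT2-KO values, and the test over all genes was not passed (log2 fold change 0.57, 95% interval 0.19 to 0.96, adjusted p = 0.134). On day 21 the values overlapped, at 59.1, 49.4 and 38.8 against 30.0, 53.6 and 37.7 CPM (log2 fold change -0.15, adjusted p = 0.896, where 1.23% of 7300 genes were called). *Erbb2* did not pass in either day 7 endothelial comparison (-0.23 between genotypes and -0.31 for LPS against PBS, adjusted p = 0.523 and 0.160).

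Endothelial *Areg* passed the test on day 7 for genotype (log2 fold change 2.98, adjusted p = 0.0109, where 2.05% of 11673 genes were called) and for LPS against PBS (4.10, adjusted p = 0.000454). Its level was 1.24 to 2.20 CPM in β1fl/fl, 0.392 to 1.29 CPM in PBS-treated β1AT2-KO and 5.72 to 22.3 CPM in LPS-treated β1AT2-KO mice. The mice ranked as in AT2 cells of the last group, with 12.8, 22.3 and 5.72 CPM in endothelial against 854, 993 and 468 CPM in AT2 cells. As given above, the mean endothelial level was not clearly above that expected of free RNA from AT2 cells, and the source of these UMIs was not tested. The genotype call was lost in 4 of 13 alternatives, which were sex as a term (adjusted p = 0.176) and the fits without β1AT2-KO mouse 2, β1fl/fl mouse 2 or β1fl/fl mouse 3 (adjusted p = 0.0507, 0.0762 and 0.0614).

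In mesenchymal cells edgeR and DESeq2 called no family gene in any comparison, and 1, *Egfr* for LPS against PBS, had an unadjusted p under 0.05. *Egfr* was 156, 138 and 149 CPM in β1fl/fl and 196, 157 and 135 CPM in LPS-treated β1AT2-KO mice on day 7, which overlapped (log2 fold change 0.18, 95% interval -0.30 to 0.66, adjusted p = 1). *Ereg* varied more between mice than between genotypes, at 16.1, 173 and 23.5 CPM against 21.8, 106 and 43.0 CPM (-0.08, -1.78 to 1.61, adjusted p = 1). *Hbegf* gave -0.24 (-1.16 to 0.68, adjusted p = 1). Here 0.0785% of 7640 genes were called. On day 21 *Egfr* alone could be tested, at 117, 148 and 80.6 CPM in β1fl/fl mice and 147 and 218 CPM in the 2 β1AT2-KO mice with at least 5 cells (0.73, -0.16 to 1.63, adjusted p = 0.514, where 0.493% of 1827 genes were called). For LPS against PBS, 1 PBS-treated mouse had enough mesenchymal cells, and *Egfr* gave 2.66 (SE 0.80, adjusted p = 0.259, where 0.0262% of 7640 genes were called) from 1 *Egfr* UMI in that mouse.

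**Figure D5:**
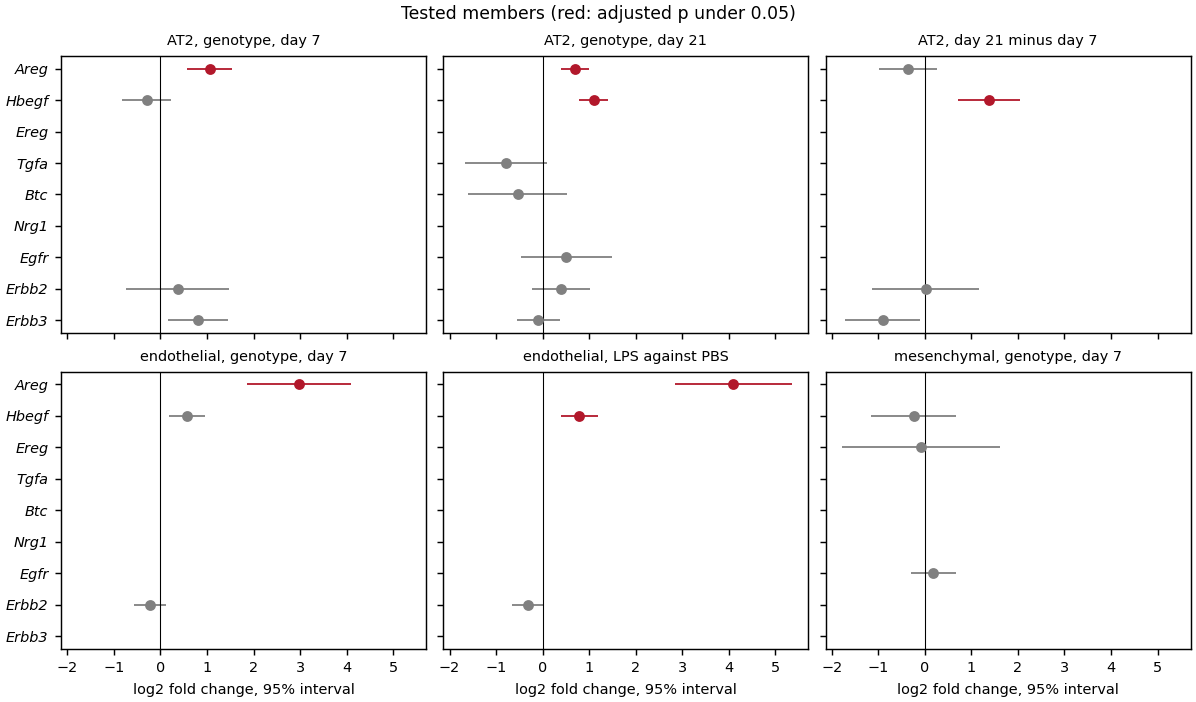
Log2 fold change with its 95% interval for each family gene that could be tested, by cell class and comparison (β1AT2-KO over β1fl/fl, day 21 minus day 7 effect, or LPS over PBS); red marks adjusted p under 0.05 in edgeR and a missing point a gene that was not tested. *Areg* and *Hbegf* are the genes in red, and no mesenchymal point is red. Mean endothelial *Areg* levels were below or near those expected of free AT2 RNA, and their source was not tested.

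Around the family, lists of genes of ligand release, signal relay and feedback were counted in AT2 cells between genotypes with LPS, in comparisons that called 1.68% of all genes tested on day 7 and 3.55% on day 21. Of 10 shedding genes, 7 were tested on day 7 and none was called (2 at an unadjusted p under 0.05, none by DESeq2), and 8 were tested on day 21, of which *Timp3*, an inhibitor of the ligand-releasing proteases, rose (log2 fold change 0.70, SE 0.11, adjusted p = 0.000295, edgeR). The proteases *Adam10* (0.37, adjusted p = 0.361) and *Adam19* (0.18, adjusted p = 0.619) did not pass. The list's median was 0.12 on day 7 against -0.02 over all genes tested, and 0.16 on day 21 against 0.00. Of 18 receptor adaptors and kinases of the ERK cascade, 16 and 17 were tested and none was called on either day (1 and 3 at an unadjusted p under 0.05, none by DESeq2), with medians of -0.05 and 0.17. Among them *Mapk3*, a kinase of the cascade, gave 0.13 and -0.14.

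Of 21 genes that restrain or degrade the receptors, 12 were tested on day 7 with none called (2 at an unadjusted p under 0.05, none by DESeq2) and 17 on day 21, of which 1 rose, a share near the 3.55% over all genes. It was *Errfi1*, an inhibitor of the Egfr kinase (0.46, SE 0.12, adjusted p = 0.0320 on day 21, and 0.01 on day 7). *Spry1*, a feedback inhibitor of receptor signalling, was 0.13 and -0.38 and did not pass. Medians were 0.02 and -0.02. Of 18 ERK output genes, 10 were tested on day 7 and 12 on day 21. On day 7 *Phlda1* rose (0.89, SE 0.19, adjusted p = 0.0145) and *Egr1*, an early growth response factor, fell by 0.86 (SE 0.21, adjusted p = 0.0341). On day 21 *Egr1* (0.51, adjusted p = 0.00552), the AP-1 subunit *Fosl1* (1.34, adjusted p = 0.00236) and *Ier3* (0.74, adjusted p = 0.00990) rose, and *Etv5*, a factor of AT2 maintenance, gave -0.34 and did not pass (adjusted p = 0.0737). The list's medians were 0.23 and -0.19, so on day 21 the members called rose while the median lay below 0.

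Of 18 immediate early genes, which respond within minutes to growth factors and also to tissue digestion, 17 were tested on each day, of which 2 were called on day 7 (1.68% over all genes) and 5 on day 21 (3.55%). On day 7 *Btg2* (-0.74, adjusted p = 0.0384) and *Egr1* fell, and the median was -0.57. On day 21 *Atf3* (1.24, SE 0.09, adjusted p = 1.01e-08), *Klf6* (0.73, adjusted p = 7.05e-05), *Junb* (0.45, adjusted p = 0.0202), *Jund* (0.39, adjusted p = 0.00931) and *Egr1* rose, and the median was 0.27. The list's summed level in AT2 cells was 24002, 17142 and 21203 CPM in β1fl/fl and 16609, 20200 and 12448 CPM in LPS-treated β1AT2-KO mice on day 7. On day 21 it was 16720, 15809 and 16384 CPM against 21750, 21095 and 22475 CPM. On day 21 the list split the mice by genotype as *Hbegf* did, and on day 7 mouse 2 was the lowest of the β1fl/fl mice and the highest of the β1AT2-KO mice both for the list and for *Hbegf*. Its part in the *Hbegf* difference was not tested.

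Likeness was measured as Pearson's r of log2(CPM + 5) over 20 profiles, which are 4 cell classes in 5 libraries. It is a description, since classes of a library share depth and free RNA. Nearest to *Areg* were *Mal2* (0.98), *Nkx2-1* (0.98), the lung epithelial transcription factor, and the claudin *Cldn3* (0.97). For *Erbb3* they were *Spint1*, *Dsp* and *Unc13d* (each 0.99), and for *Tgfa* *Marveld2* (0.95), *Eya1* (0.93) and *AI661453* (0.91). *Egfr* was nearest to *Cers6* (0.97), *Aebp1* (0.96) and *Neo1* (0.96), and *Ereg* to *Aldh1l2* (0.86), *Pnp2* (0.85) and *Syt3* (0.82). *Hbegf* lay nearest to *Fam210a* (0.94), *Npc1* (0.93) and *Pi4k2b* (0.92), and *Erbb2* to *Klc2* (0.95), *Tbc1d14* (0.90) and *Sema3b* (0.88). Among the 9 genes themselves *Areg* was most like *Erbb3* (0.94). *Btc* and *Nrg1* had under 200 UMIs and were not ranked.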

How the data were processed

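The authors aligned and counted 10x 5′ libraries with Cell Ranger 3.1 on mm10, and the deposited files hold raw UMI counts per gene and hashtag in each barcode. The submitters' notes also name Seurat 4.1.0. The free RNA correction, cell filter and doublet removal described by the authors are not part of these counts. The 9 genes, the cell gates and the lists were chosen with earlier results of these data known.

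A cell was given to a mouse if 1 hashtag in use (1% or more of all tag counts) reached 4 times its background. Such cells made up 50.2 to 78.7% per library. Cells with several tags, or with markers of another compartment, were left out of the values per mouse or of the class, and no doublet caller was run. Counts were summed per mouse (at least 5 cells) and class and tested with edgeR 4.0.16 in R 4.3.3 (TMM, filterByExpr, quasi-likelihood test, Benjamini-Hochberg adjusted p under 0.05 over all genes tested). The interval of a fold change is its 95% confidence interval. The script was tested on simulated data, where 38 of 100 genes changed 2-fold and 88 of 100 changed 4-fold were called for the day 7 AT2 comparison, and 46 and 88 for day 21, with 1 and 5 false calls. Levels, exact Poisson intervals and the expected shares after thinning to 2000 UMIs (hypergeometric) were computed in Python 3.11.15 with scipy 1.17.1. Positions are from GENCODE M21 (GRCm38) and promoters from RefSeq (GRCm38.p6).

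Genes named were the 9 genes, the other family members, in each list those that passed in AT2 cells in a genotype comparison and the 3 with the most AT2 UMIs, *Itgb1* and *Xist*, and the 3 genes nearest to each of the 9. The values of some genes that this rule names are not reported here. Alternatives were the size factors of DESeq2 1.42.0, its Wald test, no filter on low counts, stricter gates (for AT2, *Sftpc* at 10% of UMIs), the highest hashtag, mice with at least 20 cells, each mouse left out and, added after seeing the data, sex as a term.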

Additional observations from a re-analysis of the deposited data

Results flagged for a closer look

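The effect of genotype in AT2 cells differed between day 21 and day 7 for 3 of the genes named, by the test of the difference itself (edgeR interaction of genotype and day). For *Hbegf* the log2 fold change was -0.30 on day 7 and 1.09 on day 21, a difference of 1.38 (adjusted p = 0.0391). For *Egr1* it was -0.86 and 0.51, a difference of 1.36 (adjusted p = 0.00579). For *Atf3* it was -0.12 and 1.24, a difference of 1.36 (adjusted p = 0.00172). The interaction was called for 38 of 6365 genes. The *Hbegf* call was lost in 8 of 12 fits that left out 1 mouse, and also with sex in the model. The libraries of the days differed in EPCAM enrichment and in the sexes of the mice, whose part was not tested beyond sex as a term in the model.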

How the results depend on the processing

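With another normalization (the size factors of DESeq2), the Wald test of DESeq2, no filter on low counts, the stricter gates or the highest hashtag, no call on a family gene changed within a time point where the alternative gave an adjusted p. DESeq2 gave one for 16 family gene tests, so it could not check the others. In all counts of DESeq2 calls, a gene without an adjusted p counted as not called. For the interaction (the genotype effect on day 21 against day 7) only the normalization, the filter, sex and leaving out mice were run. The day 7 AT2 genotype comparison called 99 genes, 162 without the filter, 42 with DESeq2 and 48 to 130 with 1 mouse left out. LPS against PBS in AT2 cells called 12, 24 without the filter, 3 with the highest hashtag and 7 to 15 with 1 mouse left out. The day 21 AT2 comparison called 310, and 207 to 280 with 1 mouse left out. The interaction called 38, 96 without the filter and 14 to 52 with 1 mouse left out. In endothelial cells the day 7 genotype count was 239, 378 without the filter, 79 with sex and 71 to 236 with 1 mouse left out, LPS against PBS 3144 and 2319 to 3216, and the day 21 count 90, 273 without the filter, 53 with DESeq2, 46 with the highest hashtag, 253 with sex and 38 to 150 with 1 mouse left out. In mesenchymal cells the day 7 genotype count was 6, 174 without the filter and 3 to 39 with 1 mouse left out. LPS against PBS called 2, 246 without the filter, 148 with DESeq2, 1 with the highest hashtag and 0 with 1 mouse left out. On day 21 the count was 9, 47 without the filter, 16 with DESeq2, 5 with the stricter gate, 0 with the highest hashtag, 44 with at least 20 cells per mouse, 3 with sex and 3 to 11 with 1 mouse left out. The causes were not tested. Of 135 levels each, 9 moved in cells with at least 1500 genes, 25 with free RNA subtracted, 18 as a mean over mice and 3 with the stricter gates. A level was counted as moved if it shifted by at least the SD between mice. Where there was no such SD above 0, it was counted if it left its Poisson interval.

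No paired analysis was possible because each condition is 1 library and hashtag numbers do not tie mice across libraries. Sex as a term could not be fitted on day 7 in AT2 or mesenchymal cells. LPS against PBS was not run in either class with at least 20 cells per mouse or without its only PBS-treated mouse, nor with the stricter gate in mesenchymal cells. Depth limited the low transcripts: *Tgfa*, *Btc*, *Egfr*, *Ereg* and *Nrg1* could not be tested in AT2 cells on day 7.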

Other observations

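Some of the signalling lists around the family moved in endothelial cells, where the receptors other than *Erbb2* were near background. Between LPS-treated and PBS-treated β1AT2-KO mice on day 7, 4 of 9 shedding genes tested rose and 1 fell, 7 of 19 receptor brakes rose and 2 fell, and 5 of 15 ERK output genes rose and 3 fell, in a comparison that called 26.9% of all genes tested (edgeR). Of 18 receptor adaptors and ERK cascade genes tested there, 2 rose and 1 fell, a smaller share than over all genes. The immediate early list mostly fell, with 2 of 18 higher and 7 lower and a median log2 fold change of -0.57 against 0.02 over all genes. Between genotypes with LPS on day 21, 6 of 17 immediate early genes tested fell in endothelial cells (median -0.50 against 0.00), where 1.23% of all genes tested were called, while 5 of 17 rose in AT2 cells of the same libraries, where 3.55% were. The difference between the cell classes was not tested.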
